A study of Mus musculus with 30 samples.

Results

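Replication-dependent histone genes supply the proteins that package newly made DNA. Cells transcribe them mainly in S phase, and their mRNAs usually end in a stem-loop in place of a poly(A) tail. H2A, H2B, H3 and H4 form the core of the nucleosome, and H1 binds the linker DNA between nucleosomes. Sensory neurons do not divide, and in such a tissue these mRNAs are known mainly from the cells that still replicate DNA. Resting cells also transcribe some of these genes. The genes described here are those annotated as protein-coding whose symbol follows the mouse names for replication-dependent H1, H2A, H2B, H3 and H4 genes. The rule took 63 of the 56686 genes in the table, of which 21915 are protein-coding. They comprise 5 H1, 17 H2A, 17 H2B, 12 H3 and 12 H4 genes. A further 2 entries, H2ac14 and H2ac5-ps, matched by name but carry another biotype and were left out.

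The tissue was the lumbar dorsal root ganglia L3 to L5 of both sides from wild type male C57BL/6J mice. The treatments were saline, 4 single drugs (dexamethasone, doxorubicin, vincristine and cyclophosphamide) and CVAD, which combines the 4, and mice were perfused on day 2 or day 8. Saline, CVAD, cyclophosphamide and dexamethasone were sampled on both days and the other two drugs on day 8 alone, giving 10 groups of 3 libraries. Doses and ages are not given in the sources used here, and the labels do not say whether a library is 1 animal or a pool, so p-values measure only the spread between libraries. Total RNA was depleted of ribosomal RNA and primed at random, without poly(A) selection. Values are TPM, transcripts per 1000000 after correction for gene length, and the depth in reads is unknown. Markers of ganglion neurons summed to 1547 to 2226 TPM and those of satellite glia and Schwann cells to 1648 to 2319 TPM over the 30 libraries, and none of either list was at 0 throughout. In a whole tissue, fewer cells of a type and less RNA per cell cannot be told apart.

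The genes lie in 3 blocks, given here in the coordinates of the table, whose gene starts match GRCm39. On chromosome 13 there are 53, with 23 between 21899933 and 22227846 and 30 between 23715220 and 24118834. On chromosome 3 there are 10, between 96127181 and 96177448. Within these blocks 12 pairs of an H2A and an H2B gene start back to back, 176 to 306 bases apart. Promoters of 57 of the genes were found in the RefSeq table (GRCm38.p6), and 250 bases before each start were searched on both strands for 3 motifs: TATAAA, the core of the TATA box; CCAAT, the NF-Y box; and ATTTGCAT, the octamer known from H2B promoters. TATAAA occurred in 28 of 57, or 49.1%, against 12.4% of all 32851 promoters. CCAAT occurred in 47, or 82.5%, against 33.8%, and the octamer in 12, or 21.1%, against 1.60%. The octamer was found before 6 of 17 H2A and 6 of 14 H2B genes, and before 0 of 5 H1, 0 of 10 H3 and 0 of 11 H4 genes. Divergent partners share this region, so 1 motif can be counted for both genes of a pair, as the octamer of H2ac8 and H2bc8 was. In the 150 bases before the start, the octamers of H2ac1, H2ac4, H2ac6 and H2ac8 lay on the other strand only. CCAAT was found before every H1, H2A and H2B gene matched, before 8 of 10 H3 genes and before 3 of 11 H4 genes.

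The 150 bases before the start of 5 genes are printed with these motifs in capitals, on either strand, to show how the families differ. H3c8 (chr13:23535268-23535417, plus strand) and H2bc15 (chr13:21753926-21754075, plus strand) had the smallest p-values among the histone genes in CVAD on day 8. H2bc8 (chr13:23571250-23571399, plus strand) shows the octamer and TATA box between a divergent pair. H4c12 (chr13:21750554-21750703, minus strand) has a TATA box and no CCAAT in this window, and H1f2 (chr13:23738657-23738806, plus strand) is an abundant H1 gene that varied little. Builds differ, so these coordinates are not those of the table.
H3c8: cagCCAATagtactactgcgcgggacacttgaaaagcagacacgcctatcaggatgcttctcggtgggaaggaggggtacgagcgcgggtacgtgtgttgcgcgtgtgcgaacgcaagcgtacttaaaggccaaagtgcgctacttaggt
H2bc15: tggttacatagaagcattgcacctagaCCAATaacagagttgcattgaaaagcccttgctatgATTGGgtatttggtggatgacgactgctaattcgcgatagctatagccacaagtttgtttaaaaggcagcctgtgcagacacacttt
H2bc8: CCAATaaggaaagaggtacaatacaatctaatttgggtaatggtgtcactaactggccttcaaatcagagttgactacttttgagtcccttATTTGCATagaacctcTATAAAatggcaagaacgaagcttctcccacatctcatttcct
H4c12: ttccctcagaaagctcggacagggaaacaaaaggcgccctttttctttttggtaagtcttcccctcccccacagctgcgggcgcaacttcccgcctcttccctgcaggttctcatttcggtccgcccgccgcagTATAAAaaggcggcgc
H1f2: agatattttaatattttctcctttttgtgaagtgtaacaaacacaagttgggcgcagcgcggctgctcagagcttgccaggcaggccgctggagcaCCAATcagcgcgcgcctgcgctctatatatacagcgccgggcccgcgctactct

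Nearly all of the genes were detected in every library. Of the 63, 62 were above 0 in all 30 libraries, and 60 had at least 1 TPM in each. H2ac1, a testis H2A gene, was listed at 0 in all 30 and is the single gene below 1 TPM in all 10 groups; no gene was below 1 TPM on average in only some groups. H2ax, a histone gene that cells use widely and not a member, was also listed at 0 in all 30, so a 0 in this table need not mean an absent mRNA. Mean levels were above 50 TPM for 10 genes, between 10 and 50 TPM for 37 and below 10 TPM for 16. The highest means over all libraries were those of H2ac18 (ENSMUSG00000064220.7, 114 ± 31.0 TPM, SD, n = 30), H2ac19 (ENSMUSG00000063954.8, 113 ± 14.5), H4c18 (ENSMUSG00000069305.4, 107 ± 18.5) and H1f2 (ENSMUSG00000036181.3, 90.1 ± 8.69). H4c12, H3c13, H4c2 and H4c6 followed at 88.5, 69.4, 68.1 and 59.2 TPM. H4 genes held 31.2% of the summed histone TPM on average, H3 genes 20.97%, H2A genes 19.8%, H2B genes 18.98% and H1 genes 9.03%.

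Many of these genes are near copies, which limits how far a value belongs to 1 of them. In the GENCODE annotation of GRCm38 the 12 H4 genes encode 1 protein of 103 residues, and 8 of the 12 H3 genes share 1 protein. Among H2A genes the commonest of 8 proteins is shared by 9 genes, and among H2B genes the commonest of 10 by 6. The 5 H1 genes encode 5 different proteins. Of all different 75-base stretches in a gene's annotated transcripts, a median of 46.1% occurred in another gene, counting genes that overlap at the same place. For 28 genes the share was over 50%, for 7 over 90%, and for 5 it was 0 (H1f1, H1f5, H4c14, H2bc21 and H2ac1). How the authors' counting split such reads is not given in the sources used here, so single values of near copies are uncertain and family sums are given beside them.

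Summed over the 63 genes, histone TPM ranged from 1402 to 3224 between libraries, or 0.140 to 0.322% of all TPM. On day 8 the saline libraries were at 3224, 2630.1 and 2046 TPM and the CVAD libraries at 1766, 1703 and 1450.2 TPM. The cyclophosphamide libraries were at 1750.5, 1805 and 2045 TPM. All CVAD and cyclophosphamide libraries of day 8 thus lay below all saline libraries, though the nearest pair of cyclophosphamide and saline libraries was at 2045 and 2046 TPM.

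Vincristine libraries were at 1771, 2233 and 2716 TPM, doxorubicin at 2109, 1901 and 2274 TPM and dexamethasone at 2445, 2029 and 2310.0 TPM. These 3 groups overlapped saline. The ratio of mean sums to saline of day 8 was 0.623 for CVAD, 0.709 for cyclophosphamide, 0.795 for doxorubicin, 0.851 for vincristine and 0.859 for dexamethasone. Without the highest saline library the CVAD ratio was 0.701 and the cyclophosphamide ratio 0.798.

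On day 2 saline had the lowest mean of the groups. Saline libraries were at 1402, 1592 and 2053 TPM, CVAD at 1528, 2244 and 2111, cyclophosphamide at 1647, 2009 and 2002, and dexamethasone at 2213, 2081 and 1486. All 3 drug groups overlapped saline, with ratios of 1.17, 1.12 and 1.15. Genes of the biotype misc_RNA held 28.3, 24.3 and 21.8% of all TPM in saline of day 2 and 18.8, 20.5 and 19.2% on day 8. A larger share of 1 biotype lowers the TPM of all other genes. Of protein-coding TPM alone, the histone genes held 0.232, 0.247 and 0.303% in saline of day 2 and 0.464, 0.395 and 0.303% on day 8. In order of group means, saline of day 8 was highest at 2633 ± 589 TPM (SD, n = 3) and saline of day 2 (1682 ± 335) and CVAD of day 8 (1639.8 ± 167) were lowest. Neighbours in that order did not differ beyond their spread. Day 8 comparisons share the saline libraries of day 8, and day 2 comparisons those of day 2.

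**Figure D1:**
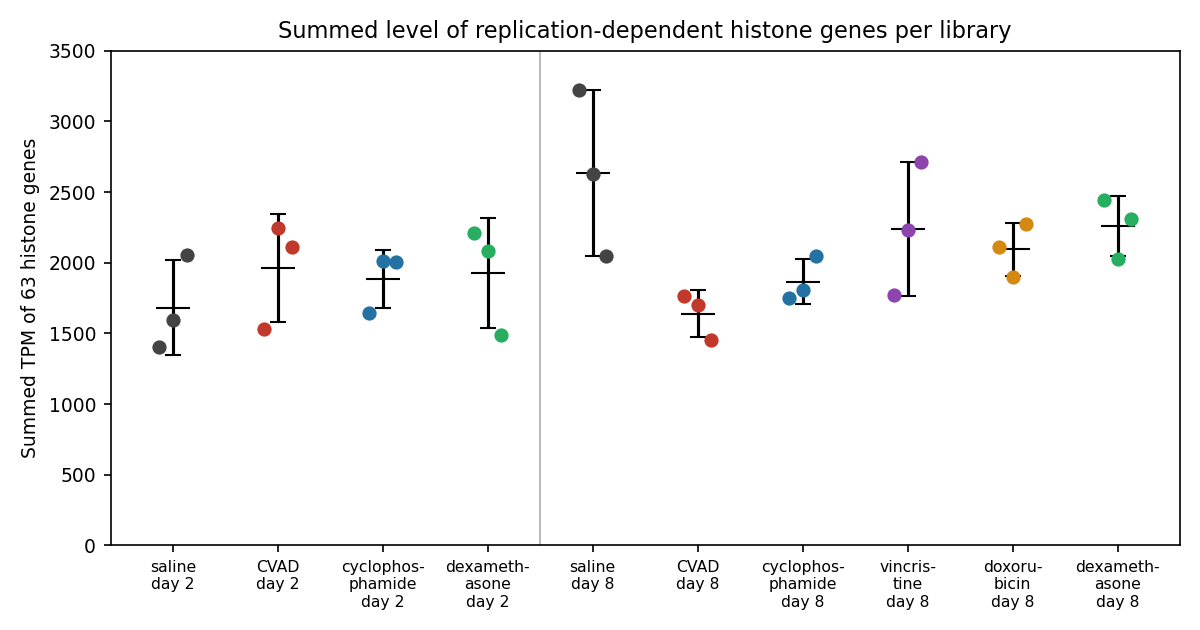
Summed TPM of the 63 histone genes (vertical axis) in each of 30 libraries, by group (horizontal axis). Coloured points are libraries, and black bars give the mean and SD of 3. CVAD of day 8 lies between 1450.2 and 1766, below the 3 saline libraries of day 8 at 2046 to 3224.

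CVAD was compared with saline on day 8 to ask what the combination did to each gene. No histone gene passed limma's test adjusted over all 25434 genes tested (0 of 62 called; smallest adjusted p 0.306, for H3c8), and 0% of all genes did. Of 62 tested histone genes, 61 had a lower mean in CVAD, where 44.7% of all genes did. For 42 all 3 CVAD libraries lay below all 3 saline libraries, where 4.58% of all genes did so. At an unadjusted p under 0.05, 45 were lower, against 2.78% of all genes. The histone genes varied together between libraries and many share sequence, so these counts are not counts of independent results. The median log2 fold change over the 62 was -0.60, with quartiles of -1.01 and -0.38, and the median over all genes was 0.02. Fold changes are on the log2(TPM + 1) scale, which understates those of low genes.

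The families differed in how far they lay below saline. Medians were -1.08 for H3, -0.83 for H2A, -0.60 for H2B, -0.51 for H1 and -0.45 for H4. H3 genes summed to 352, 311 and 217 TPM in CVAD and to 869.6, 671 and 414 TPM in saline, with no overlap. H4 genes summed to 536, 538 and 532 TPM in CVAD and to 873, 782 and 616 TPM in saline, also with no overlap. The CVAD libraries were almost equal in H4 and spread more widely in H3. The difference between families was not tested.

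Core histone genes with the smallest p-values were an H3 and an H2B gene. H3c8 (ENSMUSG00000099517.3, chromosome 13, 23719592 to 23720121) was at 18.05, 16.9 and 10.2 TPM in CVAD and at 54.8, 37.4 and 24.02 TPM in saline. No CVAD library reached a saline library, and the log2 fold change was -1.27 with an SE of 0.33. H2bc15 (ENSMUSG00000095217.2, chromosome 13, 21938293 to 21938673) was at 34.6, 32.6 and 20.5 TPM in CVAD and at 90.4, 63.3 and 52.6 TPM in saline. Its groups were also apart, and its log2 fold change was -1.21 with an SE of 0.32 (limma, adjusted p 0.337). H3c7, another H3 gene, was at 22.2, 20.3 and 15.9 TPM in CVAD and at 52.0, 37.6 and 27.5 TPM in saline, a log2 fold change of -0.93. In each of these genes replicate 3 was the lowest of the saline libraries and replicate 3 the lowest of the CVAD libraries.

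Among the abundant H3 and H4 genes, H3c13 was at 58.1, 47.7 and 33.5 TPM in CVAD and at 136, 105 and 68.2 TPM in saline, a log2 fold change of -1.11. H4c2 was at 56.5, 55.1 and 54.4 TPM against 104, 87.2 and 65.7 TPM, and H4c6 at 48.0, 43.4 and 43.4 TPM against 86.6, 83.5 and 56.8 TPM. In each of these the groups did not overlap. H4c12 was at 74.2, 78.0 and 72.7 TPM in CVAD and 130.4, 112 and 87.8 TPM in saline, and H4c18 at 94.3, 87.5 and 103 TPM against 148, 141 and 108 TPM. Log2 fold changes of these 4 H4 genes lay between -0.72 and -0.46, nearer to 0 than that of H3c13.

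Among the most abundant H2A genes, H2ac18 was at 89.1, 97.2 and 79.2 TPM in CVAD and 154, 101 and 135 TPM in saline. H2ac19 was at 101, 105 and 94.1 TPM against 134, 112 and 121 TPM, a log2 fold change of -0.28. Both pairs of groups were apart by narrow margins.

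The linker histone genes differed in size of response. H1f2 was at 83.9, 96.0 and 86.8 TPM in CVAD and 91.7, 98.9 and 113 TPM in saline, overlapping groups with a log2 fold change of -0.18. H1f1 was at 15.1, 14.4 and 4.11 TPM in CVAD and 43.5, 33.0 and 15.4 TPM in saline, and H1f5 at 14.4, 9.95 and 5.22 TPM against 38.3, 36.7 and 15.5 TPM. These 2 genes, picked once their values were known, had log2 fold changes of -1.43 and -1.52, among the 3 lowest of the 62 with H3c1 at -1.46. Their adjusted p-values in limma were 0.534 and 0.458. The single gene with a higher mean in CVAD was H2bc21, an H2B gene known for its variant protein in olfactory neurons. It was at 12.3, 9.60 and 12.3 TPM in CVAD and 11.1, 6.00 and 8.50 TPM in saline, with overlap and a log2 fold change of 0.40.

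**Figure D2:**
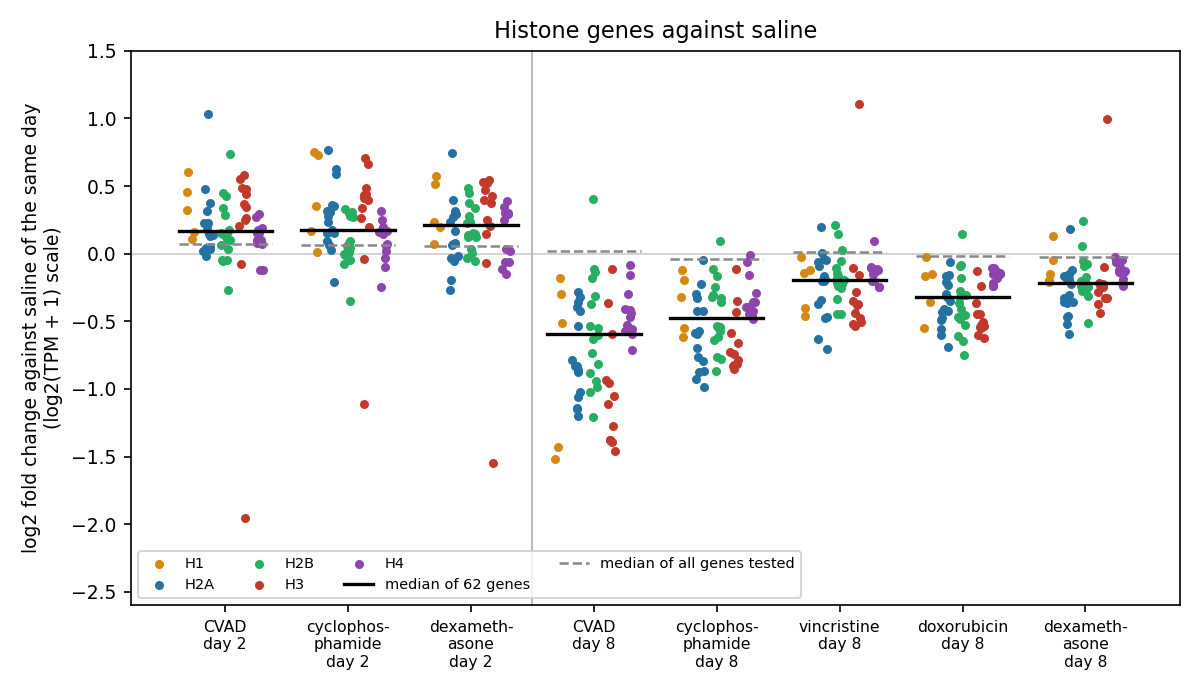
Log2 fold change against saline of the same day (vertical axis, log2(TPM + 1) scale) of the 62 tested histone genes in 8 comparisons (horizontal axis). Points are genes coloured by family, black lines the median of the 62 and dashed grey lines the median of all genes tested. In CVAD on day 8 the median is -0.60 and 61 points lie below 0.

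The counts depended on single libraries. Without saline replicate 1 of day 8, the library with the highest sum, 59 of 62 genes were still lower in CVAD, 29 genes had an unadjusted p under 0.05 in place of 46 in either direction, and the median was -0.43. Without CVAD replicate 3 that number was 30 and the median -0.53. Leaving out any 1 library of the comparison called 0 histone genes.

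Cyclophosphamide on day 8 gave the same direction at a smaller size. In limma 0 of 62 genes were called (0.00786% of all genes were), and 61 had a lower mean, where 61.0% of all genes did. Of the 62, 21 did not overlap saline (7.25% of all genes were lower without overlap). At an unadjusted p under 0.05, 26 were lower (4.57% of all genes). The median was -0.47, against -0.04 for all genes. H2bc3, an H2B gene, was at 8.72, 13.4 and 13.4 TPM in cyclophosphamide and 30.4, 24.3 and 14.4 TPM in saline, a log2 fold change of -0.87 (adjusted p 0.669 in limma). H4c9 was at 26.8, 34.9 and 31.5 TPM against 53.1, 45.3 and 34.5 TPM, so 1 cyclophosphamide library reached the lowest saline library. H4c3 was at 37.4, 36.8 and 31.6 TPM against 51.4, 46.1 and 39.4 TPM, with no overlap. Without saline replicate 1 of day 8, 0 of the 62 had an unadjusted p under 0.05, and the median was -0.31. Without cyclophosphamide replicate 1 the number was 8, without cyclophosphamide replicate 2 it was 13, without saline replicate 2 it was 16 and without saline replicate 3 it was 41.

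For the other single drugs of day 8 the histone sums overlapped saline, and few or no genes lay wholly below it. Limma called 0 histone genes for vincristine, doxorubicin and dexamethasone, and 0% of all genes in each. Means were lower for 55, 61 and 57 of the 62 genes, where 44.3%, 55.1% and 56.0% of all genes were lower. Medians were -0.20, -0.32 and -0.22, against 0.02, -0.02 and -0.02 over all genes. The groups did not overlap for 0 genes in vincristine (2.72% of all genes were lower without overlap), for 4 in doxorubicin (3.55%) and for 4 in dexamethasone (4.51%). An unadjusted p under 0.05 with a lower mean was reached by 0, 2 and 0 genes, where 1.41%, 1.87% and 2.01% of all genes reached it.

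Named by the smallest p, H4c17 was at 40.0, 44.9 and 56.5 TPM in vincristine and 58.1, 59.7 and 49.8 TPM in saline. H2bc22 was at 18.4, 13.4 and 16.96 TPM in doxorubicin and 27.3, 22.6 and 18.9 TPM in saline, and H2ac6 at 2.63, 1.93 and 1.94 TPM against 3.26, 3.13 and 3.76 TPM. H2ac21 was at 9.61, 6.46 and 6.85 TPM in dexamethasone against 13.8, 12.7 and 7.97 TPM in saline, and H2ac23 at 7.71, 6.42 and 8.81 TPM against 14.7, 9.60 and 9.01 TPM. Of these, H2bc22, H2ac6 and H2ac23 did not overlap saline, while H4c17 and H2ac21 did. The other genes among the 3 of smallest p all overlapped saline. They were H2ac8 and H3c7 in vincristine, H2bc3 in doxorubicin and H1f2 in dexamethasone.

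CVAD was set against each single drug to ask whether the combination differed from its parts. On day 8 limma called 0 histone genes in all 4 comparisons and 0% of all genes. Medians were -0.17 against cyclophosphamide, -0.43 against vincristine, -0.31 against doxorubicin and -0.46 against dexamethasone. Over all genes they were 0.06, 0, 0.04 and 0.04. CVAD lay wholly below cyclophosphamide for 3 genes (1.84% of all genes), below vincristine for 21 (4.13%), below doxorubicin for 27 (3.22%) and below dexamethasone for 34 (3.43%). At an unadjusted p under 0.05 these were 0 (0.802%), 24 (1.84%), 12 (1.62%) and 24 (1.83%). H4c6, at 48.0, 43.4 and 43.4 TPM in CVAD, was at 57.0, 74.8 and 77.1 TPM in vincristine and 65.6, 62.2 and 73.5 TPM in doxorubicin, so it did not overlap either. These counts rest on few libraries. Without CVAD replicate 3, 4, 1 and 9 genes had an unadjusted p under 0.05 against vincristine, doxorubicin and dexamethasone, and without vincristine replicate 3 or replicate 2 the number against vincristine was 1 or 8. Without vincristine replicate 1 it was 42. Without doxorubicin replicate 3 or replicate 1 it was 2 or 7 against doxorubicin, and without dexamethasone replicate 1 it was 11 against dexamethasone.

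On day 2 the drug groups overlapped saline for almost all histone genes, with 2, 3 and 1 of 62 genes wholly above it in CVAD, cyclophosphamide and dexamethasone, where 11.3%, 8.52% and 7.03% of all genes were. Limma called 0 histone genes in CVAD, cyclophosphamide and dexamethasone, where 0.0432%, 0.0118% and 0.00393% of all genes were called. Means were higher for 53, 51 and 49 of 62 genes and lower for 9, 11 and 13, where 33.0%, 34.3% and 33.7% of all genes were lower. Medians were 0.17, 0.17 and 0.22, against 0.07, 0.06 and 0.06 over all genes. At an unadjusted p under 0.05, 3, 1 and 1 were higher (4.84%, 1.61% and 1.61% of 62), against 6.97%, 5.98% and 4.31% of all genes. H2ac19 was at 113, 134 and 129 TPM in CVAD and 96.6, 102 and 102 TPM in saline of day 2, without overlap and with an adjusted p of 0.486 in limma. H1f3 was at 6.35, 8.43 and 7.57 TPM in cyclophosphamide against 5.02, 5.61 and 6.15 TPM, and H4c1 at 57.6, 60.4 and 42.5 TPM in dexamethasone against 33.2, 39.0 and 49.9 TPM. H1f3 did not overlap and H4c1 did. CVAD compared with cyclophosphamide (0.00393% of all genes called) and with dexamethasone (0%) on day 2 gave 0 calls among histone genes, 0 at an unadjusted p under 0.05 (3.83% and 3.66% of all genes in either direction) and medians of 0.01 in both.

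Within saline, most histone genes had a higher mean on day 8 than on day 2. The histone sums of the 2 days overlapped, with replicate 3 of day 2 at 2053 TPM and replicate 3 of day 8 at 2046 TPM. From day 2 to day 8, 60 of 62 genes had a higher mean and 2 a lower one, where 34.5% of all genes were lower. Without overlap 25 were higher (11.2% of all genes were), and at an unadjusted p under 0.05, 50 were higher (5.53%). The median was 0.69, and 0.07 over all genes. None was called by limma, with 0.00393% of all genes called and a smallest adjusted p of 0.354. H3c7 was at 16.2, 17.4 and 21.5 TPM on day 2 and 52.0, 37.6 and 27.5 TPM on day 8, and H1f3 at 5.02, 5.61 and 6.15 TPM against 10.5, 9.07 and 8.03 TPM, both without overlap. Without saline replicate 1 of day 8 the number with an unadjusted p under 0.05 was 29 and the median 0.49, and without saline replicate 1 of day 2 it was 31. The list of granulocyte precursors and neutrophils summed to 137, 163 and 217 TPM in saline of day 2. On day 8 it summed to 289.8, 369 and 466 TPM, without overlap, and 10 of 10 tested members had a higher mean (median 1.21). Its part in the histone difference was not tested.

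Response to a drug was then compared between days, as the difference from saline on day 8 minus that on day 2. These contrasts hold all saline libraries, so the change within saline enters each. The medians were -0.82 for CVAD, -0.64 for cyclophosphamide and -0.41 for dexamethasone. Over all genes they were -0.05, -0.11 and -0.08. Limma called 0 histone genes in each, where it called 0.0826%, 0% and 0% of all genes. At an unadjusted p under 0.05, 37, 28 and 2 of 62 were lower, against 6.29%, 8.12% and 3.85% of all genes. H2bc15 had the smallest p in CVAD, a difference of -1.66 with an SE of 0.45 (limma, adjusted p 0.166). For cyclophosphamide, the number was 10 without saline replicate 1 of day 8 and 13 without saline replicate 1 of day 2, counted in either direction. It was 17 without saline replicate 2 of day 2 and 16 without cyclophosphamide replicate 2 or replicate 3 of day 2 or replicate 1 of day 8.

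**Figure D3:**
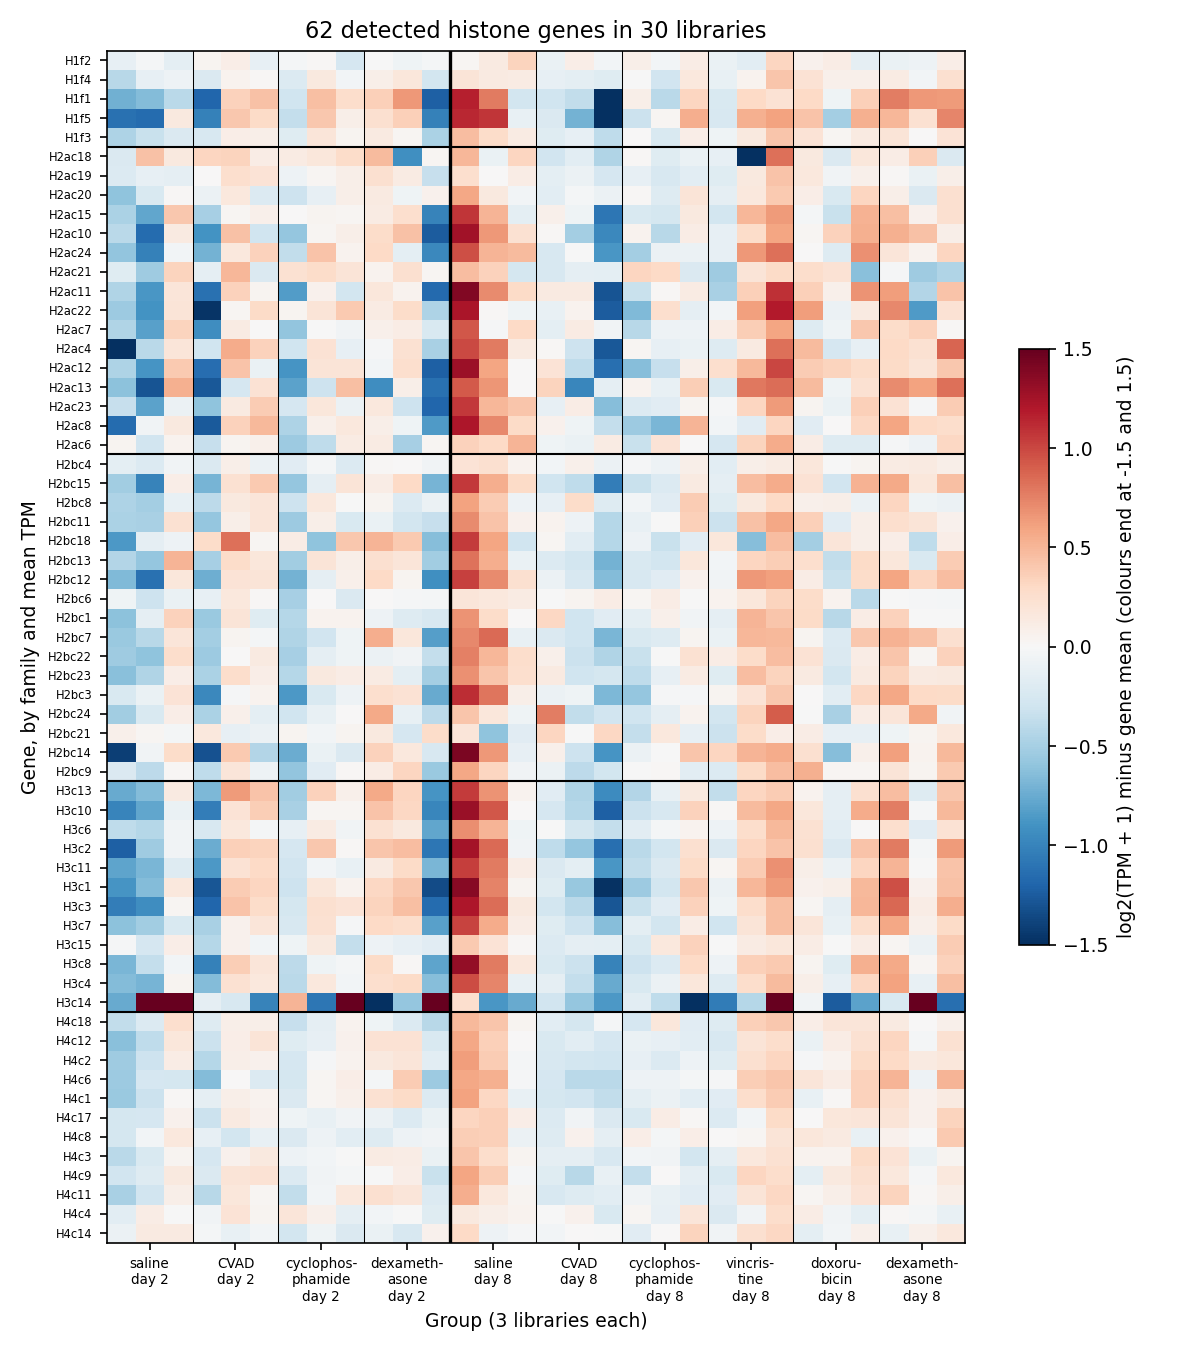
Levels of the 62 detected histone genes (rows, ordered by family and mean TPM) in 30 libraries (columns, 3 per group), as log2(TPM + 1) minus the gene's mean, with colours ending at -1.5 and 1.5. Most rows share 1 pattern, with saline replicate 1 of day 8 highest in sum at 3224 TPM. H3c14, H2bc21, H2ac18 and H1f2 are among the genes that do not follow that pattern.

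Most histone genes varied together from library to library, and a few did not. Of 1891 pairs of genes, 1339 had a Pearson r above 0.5 over the 30 libraries (log2 scale) and 103 an r below 0, with a median of 0.70. These values are a description, since the libraries share groups and a common scaling. The H3 family spanned 4.02-fold between libraries, H2B 2.34-fold, H2A 2.20-fold, H4 1.91-fold and H1 1.70-fold. Divergent partners did not stand far from other combinations: r had a median of 0.74 in 11 H2A and H2B pairs and of 0.66 in 261 other H2A and H2B combinations. In the pair H2ac15 and H2bc15 r was 0.90, and in H2ac20 and H2bc21 it was 0.01. Partners could differ widely in level, as in H2ac6 and H2bc4 at 2.42 and 47.4 TPM, whereas for H2bc1, a testis H2B gene at 22.9 TPM, no ratio to its partner H2ac1 is given.

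Genes of the cell cycle varied with the histone sum. Over 30 libraries the log2 sum had an r of 0.94 with the mean of 20 genes of G2 phase and mitosis and of 0.91 with that of 26 genes of S phase. With replication-independent histone genes r was 0.69, with histone chaperones 0.64 and with 20 factors of histone mRNA transcription and processing 0.52. With granulocyte precursors and neutrophils it was 0.75, with erythroid precursors 0.59, with satellite glia and Schwann cells 0.35 and with ganglion neurons 0.14. Markers of B lineage were at 0.50, bone and cartilage at 0.48, T and NK cells at 0.43 and macrophages at 0.39. Skeletal muscle was at 0.13 and spinal cord at -0.004. Without the 2 libraries farthest from the median of the list, the granulocyte value was 0.82 and the erythroid value 0.77. After subtraction of group means the mitosis value was 0.94, the granulocyte value 0.60 and the erythroid value 0.74. Replication-independent histone genes were then at 0.67, chaperones at 0.53, processing factors at 0.63 and satellite glia and Schwann cells at 0.48. The mitosis genes summed to 185, 149 and 91.6 TPM in saline of day 8 and to 93.2, 89.9 and 63.4 TPM in CVAD, with overlap of 1 CVAD library at 93.2 and 1 saline library at 91.6. In CVAD on day 8, 19 of 20 mitosis genes had a lower mean (median -0.73) and 22 of 26 S phase genes did (median -0.23), and limma called none of either. Kif11, a mitotic spindle motor, had a log2 fold change of -0.76, Ccnb1, the cyclin B of mitotic entry, of -1.31, and Uhrf1, which maintains DNA methylation behind the fork, of -1.36. The processing factors, of which 19 of 20 were tested, had a median of 0.00. Among 18 histone chaperones, which hand new histones to DNA, the median was also near 0 (-0.00). Asf1b and Chaf1b, named by the smallest p in that list, were at -1.09 and -1.14. Their adjusted p-values in limma were 0.443 and 0.655, and they do not speak for the list as a whole. Of 13 tested replication-independent histone genes 10 were lower, with a median of -0.11.

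**Figure D4:**
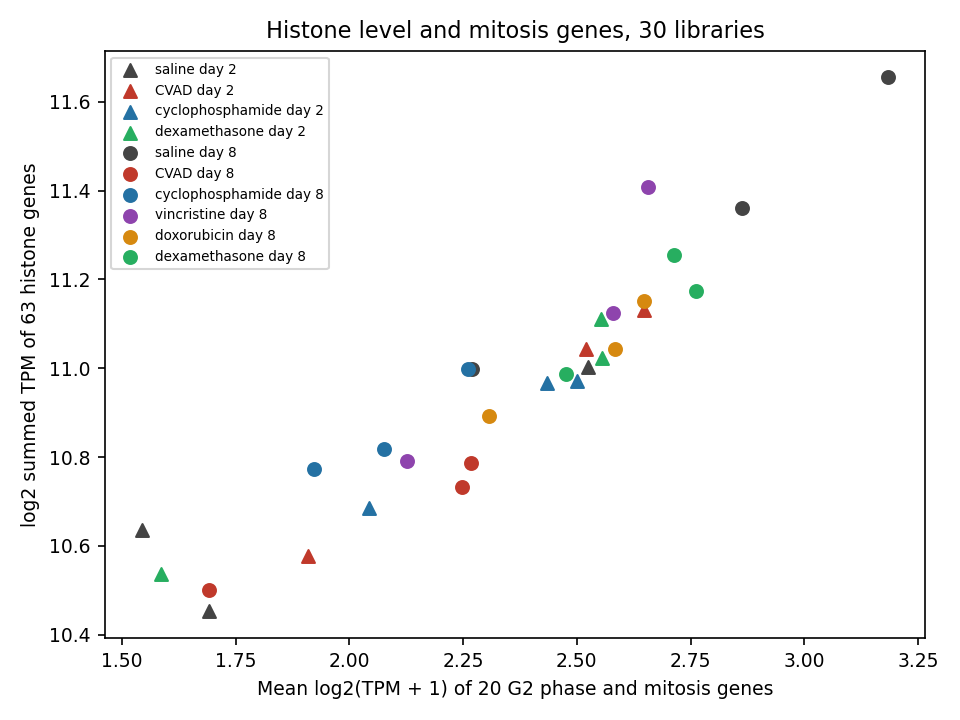
Log2 of the summed TPM of 63 histone genes (vertical axis) against the mean log2(TPM + 1) of 20 G2 phase and mitosis genes (horizontal axis) in 30 libraries, coloured by treatment, with triangles for day 2 and circles for day 8. The points follow 1 band with r = 0.94.

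Markers of blood cells and their precursors moved with some of these results. The granulocyte list summed to 133, 114 and 96.6 TPM in CVAD of day 8 and to 289.8, 369 and 466 TPM in saline, and 10 of 10 tested members had a lower mean in CVAD, with a median of -1.80. In cyclophosphamide of day 8 it summed to 159, 247 and 177 TPM, below all saline libraries, and again 10 of 10 had a lower mean (median -0.97). In the CVAD response of day 8 minus day 2 limma called 3 of the 10 lower: Camp, Ngp and Elane, genes of neutrophil granules, at -2.96, -2.25 and -2.92 (adjusted p 0.0193, 0.0283 and 0.0444). S100a8 and S100a9, defining markers of mature neutrophils, were listed at 0 in every library, as were Cd3e, Cd3d and Cd3g of T cells. Within saline of day 8 the granulocyte sum was highest in replicate 3, which had the lowest histone sum. The erythroid list summed to 238, 187 and 0.818 TPM in saline of day 8 and to 127, 51.0 and 57.5 TPM in CVAD, with the lowest value in that same library. The B lineage list, with 10 of 12 tested, had a median of -0.74 in CVAD, and the T and NK list, with 5 of 9 tested, of -1.14. The whole T and NK list summed to 3.51 to 16.4 TPM over the 30 libraries, so its median rests on genes of low level. The part of these cells in the histone levels was not tested.

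Single genes differed in how closely they followed the S phase list. For 44 of 62 genes r with the list mean was above 0.7, and the highest were H3c13 (0.92), H3c2 (0.91), H3c6 (0.90) and H3c7 (0.90). For 10 genes it was below 0.5, and for 5 below 0.3: H4c14 (0.24), H1f2 (0.17), H2ac18 (0.07), H2bc21 (-0.07) and H3c14 (-0.08). They are named because of these values. Of the 10, 7 have a longest annotated transcript of at least 1000 bases, a length that 16 of the 62 reach. The 16 had a median r of 0.60 and a median log2 fold change of -0.24 in CVAD on day 8, and the other 46 had 0.82 and -0.82. Length itself was only weakly related to r (Spearman rho -0.15 over 62 genes).

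**Figure D5:**
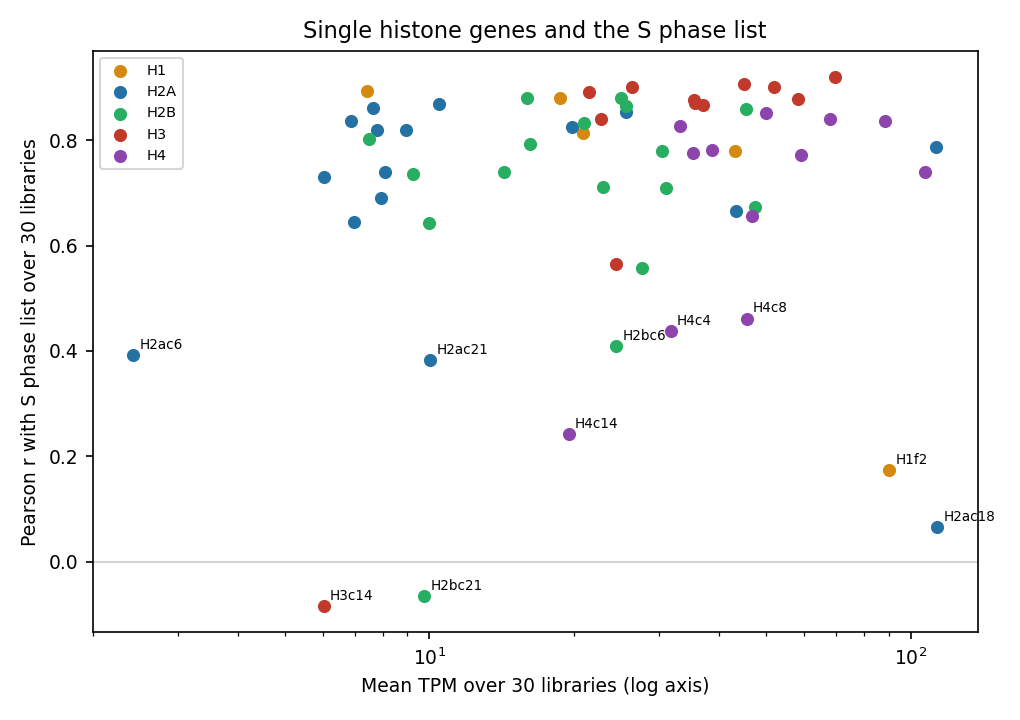
Pearson r with the mean of the S phase list over 30 libraries (vertical axis) against mean TPM (horizontal axis, log scale) for 62 histone genes, coloured by family. The 10 genes with r below 0.5 are named, and they span the range of levels from H2ac6 at 2.42 TPM to H2ac18 at 114 TPM.

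H3c14 was erratic. It was at 40.1 TPM in 1 vincristine library, at 29.02 TPM in 1 dexamethasone library of day 8 and at 27.5 and 18.9 TPM in 2 saline libraries of day 2, and it was as low as 0.0374 TPM in 1 cyclophosphamide library of day 8. High and low libraries occurred within the same groups. All of its 75-base stretches (100%) are also in Gm20634, a lncRNA that overlaps it on the same strand at a mean of 34.9 TPM, and r between them was -0.82. H2ac18 shares 88.9% with the same overlapping lncRNA and had an r of -0.49 with it, and in vincristine it was at 99.2, 28.8 and 193 TPM. The authors' assignment of reads among the overlapping genes is not given in the sources used here, so the values of H3c14 and H2ac18 are uncertain. Gm20634 also holds 100% of the stretches of H2ac19, 78.5% of those of H3c13 and 62.6% of those of H3c15. It does not overlap these genes on the same strand, but their values are uncertain too. In all, 6 of the 63 genes overlap another gene of the table on the same strand, including H1f4 and H2bc6, which overlap each other.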

How the data were processed

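The deposited table holds TPM per gene for 30 RNA-seq libraries, scaled by the authors to 1000000 per library, so depth in reads is unknown. Per the submitters' processing notes the tools were StringTie 2.2.1, STAR 2.7.10b and FastQC 0.12.1. The notes list GRCm39 and mm10, with no role for either. The coordinates match GRCm39 at Gnai3.

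Groups are the drug and day given in the labels. Replicate numbers follow the order of the samples within each group, so equal numbers do not match libraries between groups. Genes with at least 1 TPM in at least 3 libraries were tested. In limma 3.58.1 (R 4.3.3), log2(TPM + 1) values of all 30 libraries were fitted with 1 mean per group and moderated variances with a trend. P-values are 2-sided, adjusted by Benjamini-Hochberg over all genes within each of 18 comparisons, with a threshold of 0.05. The fit was tested on simulated data. Figures used matplotlib 3.10.9.

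The genes and lists were chosen with earlier results of these data known. Named are the 8 histone genes of highest mean, any called gene and the 3 of smallest p in each comparison with saline. Of a list, the 2 genes of smallest p are named. The text gives a part of these. Other names were chosen after their values were seen. Shared stretches and proteins come from GENCODE for GRCm38, and promoters from RefSeq for GRCm38.p6. Alternatives were a pseudocount of 0.1, no filter, a stricter filter, median-ratio scaling, protein-coding genes alone, a model for each day, quality weights and the omission of each library, and for sums, the omission of the top gene and chromosome 13 alone.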

Additional observations from a re-analysis of the deposited data

How the results depend on the processing

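No histone gene was called in any of the 18 comparisons under any alternative run, including the omission of each library. The medians of the comparisons with saline and between saline groups kept their sign, as did the ratios of sums. The medians of CVAD against cyclophosphamide and against dexamethasone on day 2, both 0.01, changed sign under some alternatives, down to -0.20. Of 1400 values of named genes under an alternative, 25, none of them called, changed sign. In CVAD against saline on day 8 the median ranged from -0.79 to -0.43 when 1 library was left out, and from -0.62 to -0.54 under the other alternatives. In cyclophosphamide on day 8 the corresponding ranges were -0.65 to -0.31 and -0.56 to -0.42, and for saline of day 8 against day 2 they were 0.49 to 0.86 and 0.62 to 0.72. The ratio of sums in CVAD on day 8 was 0.560 to 0.701 with 1 library left out, and 0.604 on chromosome 13 alone. The smallest adjusted p of a histone gene in CVAD on day 8 was 0.149 with protein-coding genes alone. No paired analysis was possible because the labels give the groups no shared replicate numbers. Groups of 3 libraries, unknown depth and shared sequence between copies limit all values here.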
